A study of Homo sapiens with 19 samples.

Results

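Cellular RNA was measured for 44 genes of the interferon response and of MHC class I antigen presentation in 786-O cells, a human cell line established from a renal clear cell carcinoma without functional VHL. The genes were taken by symbol from a list of genes of these pathways. All 44 were found among the 23441 symbols of the count table, and all 44 were among the 14225 genes that passed a filter on low counts and were tested. Of these, 36 are interferon-stimulated or signalling genes and 8 encode MHC class I chains or proteins that supply them with peptides.

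Interferons bind receptors at the cell surface whose JAK kinases phosphorylate STAT proteins. STAT2, together with another STAT protein and IRF9, forms a complex that binds the interferon-stimulated response element (ISRE) in the promoters of interferon-stimulated genes. The products of these genes sense viral RNA, block its translation, degrade it or keep viruses out of the cytoplasm. MHC class I molecules consist of a heavy chain and beta-2-microglobulin, and present peptides that immunoproteasome subunits cut and that the TAP transporter carries into the endoplasmic reticulum. Interferons raise many genes of this second group too.

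Pools of transduced cells, not clones, were compared. Control cells carried the empty lentiviral vector pRRL, HIF-1α re-expressing cells carried pRRL-HIF-1a and HIF-2α overexpressing cells carried pRRL-HIF-2a, each with EGFP behind an internal ribosome entry site. All 3 pools share the loss of VHL and the endogenous HIF-2α that accumulates without it, while the line's own HIF1A transcripts are truncated, so that the comparisons with the control cells add a HIF-α subunit to cells in which the pathway is already active. Each pool gave 3 RNA-seq libraries numbered 1 to 3, and 7 lists of HIF binding sites came from ChIP-seq with 1 library per antiserum and pool. The sources do not say that the RNA libraries came from separate cultures, so that p-values measure the spread between these libraries, which may be technical.

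The libraries held 27852754 to 54287621 counts. Levels are given in CPM, the usual unit for a gene's counts in proportion to the size of its library, here with library sizes scaled by the TMM method. HIF1A stood at 171 to 1682 CPM in the HIF-1α cells and at 15.3 to 152 CPM in the other 6 libraries. EPAS1, which encodes HIF-2α, stood at 880 to 3244 CPM in the HIF-2α cells and at 162 to 627 CPM in the others, so that each introduced gene was highest in the pool labelled for it. The 7 markers of renal tubule or of the line summed to 4350 to 6810 CPM, most of it VIM at 3960 to 5670 CPM. PAX8 stood at 175 to 364 CPM, PAX2 at 8.53 to 26.7 CPM, CDH6 at 14.0 to 457 CPM and CDH16 at 0.554 to 106 CPM. The 7 leukocyte markers summed to 4.61 to 8.55 CPM in control cells, 5.92 to 17.4 CPM in HIF-1α cells and 2.09 to 7.63 CPM in HIF-2α cells, CD3E had no count in any library, and the marker with the most counts was CD74, with 65 to 860 per library. The 4 endothelial markers summed to at most 1.25 CPM and the 3 markers of plasmacytoid dendritic cells to at most 0.127 CPM. The part of such cells in the results was not tested. In such bulk libraries fewer cells that express a gene and less of its RNA per cell cannot be told apart.

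The promoters show the element through which these genes are known to respond. The letters of an ISRE (GAAA, any 2 bases, GAAA, on either strand) lay between 250 bases before and 50 bases after the start in 28 of 46 promoters of the 36 members listed in RefSeq (GRCh38.p14), 60.9%, against 3.57% of all 35116 promoters in the table. Counted by gene, 24 of the 36 members held them. The letters of a GAS element (TTCNNNGAA), which STAT dimers bind, lay in 26.1% of the member promoters and in 7.66% of all, and the core of a hypoxia response element (ACGTG or GCGTG, either strand) in 17 of the 46 member promoters and in 48.4% of all. The 160 bases before the start are printed for 4 members, 5′ to 3′ on the strand of the gene, with the ISRE letters in capitals, also where 2 matches overlap. ISG15, IFI6 and B2M had the highest RNA level per transcript length in their groups, and IFIT5 carried binding sites over its start in 5 of the 7 lists. The printed bases of ISG15 lie on the plus strand of chr1:1013337-1013496, those of IFI6 on the minus strand of chr1:27672193-27672352, those of IFIT5 on the plus strand of chr10:89414408-89414567 and those of B2M on the plus strand of chr15:44711357-44711516.
ISG15: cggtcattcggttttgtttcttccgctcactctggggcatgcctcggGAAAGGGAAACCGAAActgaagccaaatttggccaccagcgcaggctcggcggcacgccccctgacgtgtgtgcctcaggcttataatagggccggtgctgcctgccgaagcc
IFI6: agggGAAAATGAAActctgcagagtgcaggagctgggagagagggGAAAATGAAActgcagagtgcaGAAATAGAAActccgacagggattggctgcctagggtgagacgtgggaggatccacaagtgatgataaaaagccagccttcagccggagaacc
IFIT5: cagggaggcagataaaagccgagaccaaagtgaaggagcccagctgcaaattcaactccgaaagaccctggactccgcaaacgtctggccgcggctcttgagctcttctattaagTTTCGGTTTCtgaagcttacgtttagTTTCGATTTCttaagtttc
B2M: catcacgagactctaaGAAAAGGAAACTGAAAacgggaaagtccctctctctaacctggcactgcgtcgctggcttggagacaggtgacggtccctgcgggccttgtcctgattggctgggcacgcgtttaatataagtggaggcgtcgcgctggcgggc
ISG15 and B2M each held 2 overlapping matches and IFI6 held 3 separate ones. IFIT5 held 2 in the printed bases, read from the other strand as TTTC, any 2 bases, TTTC, and a further match that crosses the start. A match of letters is a description and does not show binding. The promoters of IFIT2, IFITM2, MX2, OAS2, OASL, IRF7, USP18 and HLA-E were not analysed here.

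The interferon genes moved together from library to library, within pools as well as between them. For each gene the log2 CPM of a library was set against the gene's own mean over the 9 libraries. The median over the 36 interferon genes was 1.09 above that mean in control replicate 1 and 1.15 above it in HIF-2α replicate 2, and it was 0.97 below it in HIF-1α replicate 3 and 0.81 below it in control replicate 3. The other 5 libraries lay between -0.35 and 0.37, and the medians over all 14225 genes tested lay between -0.03 and 0.03. All 36 interferon genes were above their own mean in control replicate 1, and 35 of 36 in HIF-2α replicate 2. These same libraries held the highest value for 18 and 14 of the 36 genes, where control replicate 1 held the highest value for 10.6% of all genes and HIF-2α replicate 2 for 8.93%. HIF-1α replicate 3 held the lowest value for 15 of 36 and control replicate 3 for 12 of 36, against 2672 and 2703 of all 14225 genes. High and low libraries thus occurred within the same pool.

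**Figure D1:**
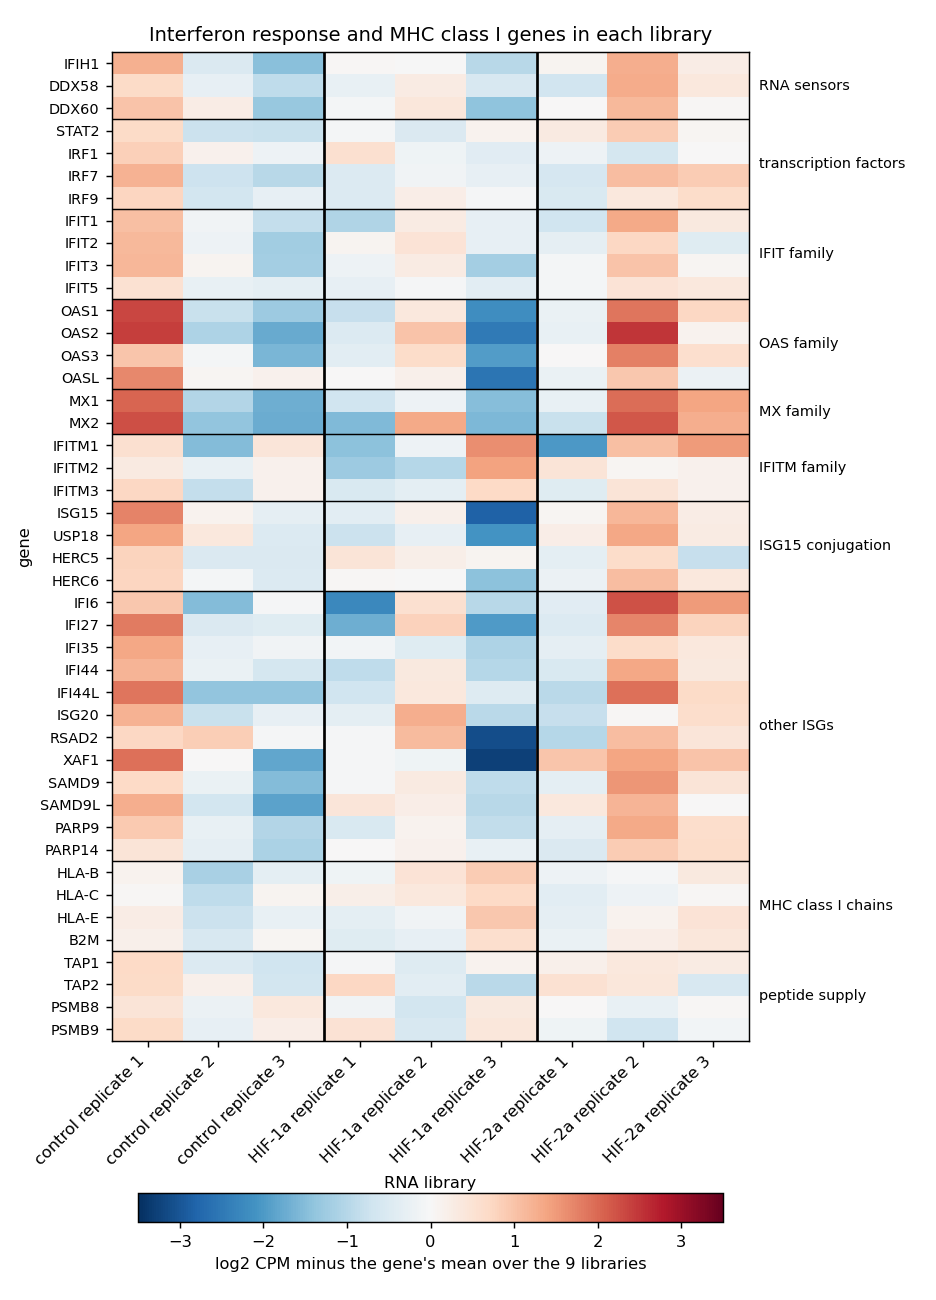
Heat map of the 44 genes (rows, grouped by role) in the 9 RNA libraries (columns, lines between pools), coloured by log2 CPM minus the gene's mean over the 9 libraries. Control replicate 1 and HIF-2α replicate 2 are red for nearly all interferon genes, HIF-1α replicate 3 is blue for most of them, and the MHC class I chains are red there.

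**Figure D2:**
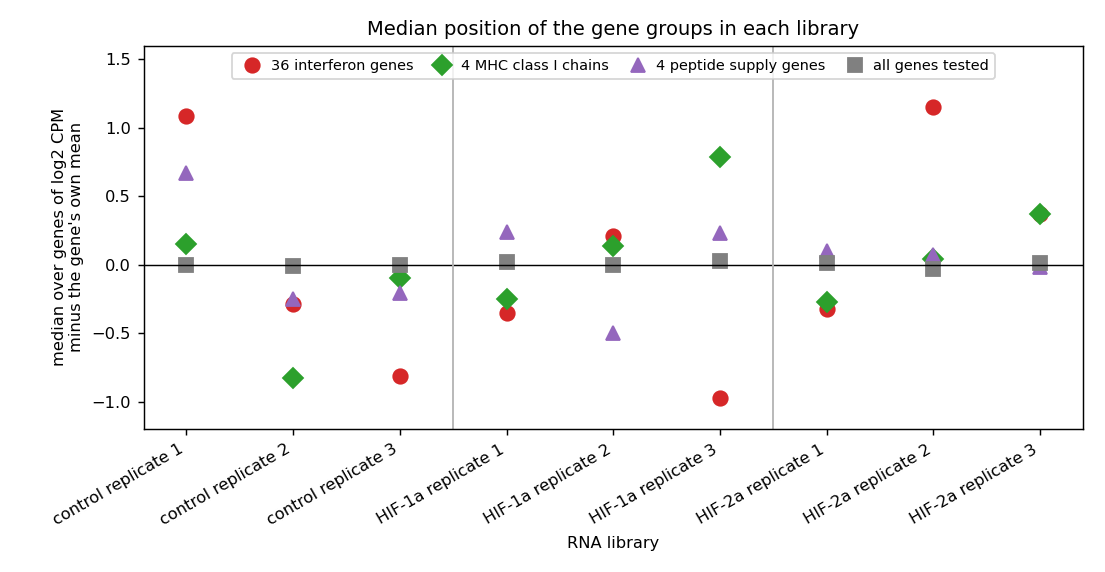
Median over the genes of each group of log2 CPM minus the gene's own mean (vertical axis), for each RNA library (horizontal axis). The 36 interferon genes reach 1.09 and 1.15 in control replicate 1 and HIF-2α replicate 2 and lie at -0.97 in HIF-1α replicate 3, where the 4 MHC class I chains are at 0.79, while all genes tested stay near 0.

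Within each pool the order of the libraries was much the same for most of these genes. In the control cells replicate 1 was the highest of the 3 for 35 of 36 interferon genes (5114 of all 14225 genes). HIF-1α replicate 2 was the highest of its pool for 25 of 36 (28.2% of all genes) and HIF-2α replicate 2 for 31 of 36 (32.4%). The ratio of the highest to the lowest library of a pool had a median over the 36 genes of 4.14 in control cells, 2.61 in HIF-1α cells and 2.69 in HIF-2α cells, where all genes had medians of 1.68, 1.63 and 1.56. Pearson's r was taken over the 9 libraries after each pool's mean had been subtracted, so that it describes movement within pools. Between pairs of interferon genes it had a median of 0.751 (630 pairs), against 0.000112 for 253116 pairs among every 20th gene tested. The latter pairs spread widely, from -0.63 to 0.636 between the 10th and 90th percentile. Of them 17.2% were over 0.5, against 75.6% of the interferon pairs. These correlations are a description, since the points share libraries and library-wide differences.

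Library size did not order these libraries in 1 way. Of the libraries that were highest within their pool, control replicate 1 held the most counts of its pool (38999986), while HIF-1α replicate 2 (39508943) and HIF-2α replicate 2 (27852754) held the fewest of theirs. HIF-1α replicate 3 held the most counts of all 9, and the TMM factors lay between 0.9718 and 1.029. The introduced genes were also highest in these libraries. HIF1A stood at 171, 1682 and 473 CPM in HIF-1α replicates 1, 2 and 3, and EPAS1 at 946, 3244 and 880 CPM in HIF-2α replicates 1, 2 and 3. EPAS1 in the control cells, which carried no HIF gene in the vector, stood at 456, 224 and 162 CPM. HIF1A in these cells stood at 30.4, 36.7 and 152 CPM. It was highest in replicate 3, where the median over the interferon genes was -0.81. In HIF-1α replicates 1 and 3 that median was -0.35 and -0.97, and in HIF-2α replicates 1 and 3 it was -0.32 and 0.37. Both are the reverse of the order of the introduced gene. In each pool the library with the most of the introduced gene, or of EPAS1 in control cells, was highest for the interferon genes. The part of the HIF levels in this was not tested.

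The numbers of the replicates did not order the members in the same way in each pool. Once the pool means had been taken off, the 9 same-number pairs of libraries had correlations of -0.484 to 0.712 over the 44 members (median 0.433). The 18 pairs with different numbers had -0.596 to 0.692 (median -0.248), so that same-number pairs were more alike at the median while the ranges overlapped. Replicate 1 was the high library of the control cells, while the median over the interferon genes lay below 0 in replicate 1 of the HIF-1α cells (-0.35, with 7 of 36 genes above their mean) and of the HIF-2α cells (-0.32, with 8 of 36 above). An F test for differences between replicate numbers passed for 2190 of 14225 genes (15.4%) and for 2 of the 44 members, both on the peptide side. TAP2, a subunit of the peptide transporter, had an adjusted p of 0.00867 (edgeR quasi-likelihood test, Benjamini-Hochberg). It stood at 84.7, 60.5 and 34.3 CPM in control replicates 1, 2 and 3, at 87.9, 41.1 and 27.7 CPM in the HIF-1α libraries and at 77.6, 70.8 and 36.6 CPM in the HIF-2α libraries, and so was highest in replicate 1 and lowest in replicate 3 of every pool. PSMB9, an immunoproteasome subunit, had an adjusted p of 0.035 in the same test and was lowest in replicate 2 of every pool. DESeq2's likelihood ratio test passed for 20.7% of all genes and for 8 members.

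Between HIF-1α re-expressing and control cells, no gene passed the edgeR test without a block, and USP18 was the member that passed with it. The question here was whether re-expression of HIF-1α changes these genes. By edgeR without a block, 0 of 44 members and 0 of 14225 genes (0.0%) had an adjusted p under 0.05, with unadjusted p under 0.05 for 2 members and for 19.4% of all genes. DESeq2 without a block called 0 members and 3.84% of genes. The estimates were below 0 for 36 of the 44 members (47.6% of all genes), with a median log2 fold change of -0.32 over the members and 0.04 over all genes. That direction rested on control replicate 1. Without it the median over the members was 0.34, with 37 of 44 estimates above 0.

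With the replicate number as a block in the fit, 1132 of 14225 genes (7.96%) passed, 363 of them lower in HIF-1α cells (2.55%), and 1 of the 44 members did. This was USP18, the protease that removes ISG15 from proteins and restrains the interferon receptor (GRCh37 chr22:18632885-18660164, plus strand). USP18 stood at 36.3, 17.8 and 9.93 CPM in the control libraries, 8.21, 11.4 and 3.202 CPM in the HIF-1α libraries and 16.4, 35.4 and 17.1 CPM in the HIF-2α libraries, numbered 1, 2 and 3. The HIF-1α cells were lower than the control cells within each number, while the 2 groups overlapped. With the block its log2 fold change was -1.53 (SE 0.40, adjusted p = 0.0488), and without it -1.49 (SE 0.57, adjusted p = 0.212). The adjusted p ranged from 0.00157 to 0.44 over the alternatives. DESeq2 with the block called OASL and USP18, both lower in HIF-1α cells, with 15.6% of all genes. In edgeR leaving out any 1 of the 9 libraries ended the call with the block, with adjusted p of 0.0543 to 0.197. Leaving out control replicate 1 in the fit with the block also gave 6 other members, all higher in HIF-1α cells: IFIT2, IFI44L, SAMD9L, HLA-B, HLA-C and HLA-E (log2 fold changes of 0.89 to 1.58, adjusted p of 0.0222 to 0.0462), where 16.6% of all genes were called and 9.19% of all genes were called higher. This alternative was chosen after the high values of that library were seen. Without all libraries of number 1, HLA-B was the member called with the block (log2 fold change 1.40, adjusted p = 0.0472), with 2.06% of all genes.

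Without the block, the lowest estimates in HIF-1α against control cells were those of OAS1, USP18 and MX1. OAS1, which makes the 2′-5′ oligoadenylates that activate RNase L, stood at 73.6, 8.39 and 6.02 CPM in control replicates 1, 2 and 3 and at 8.24, 18.7 and 3.18 CPM in HIF-1α replicates 1, 2 and 3. The HIF-1α libraries lay around the 2 lower control libraries and far under control replicate 1. The log2 fold change was -1.55 (SE 0.97, adjusted p = 0.392), and 0.47 without control replicate 1. MX1, a GTPase that blocks replication of RNA viruses, stood at 37.1, 4.44 and 2.74 CPM in the control and 5.52, 7.90 and 3.18 CPM in the HIF-1α libraries. Its log2 fold change was -1.42 (SE 0.90, adjusted p = 0.399), and 0.62 without control replicate 1, where all 3 HIF-1α libraries were above the lowest control library.

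The highest estimates were those of HLA-B and HLA-C, heavy chains of MHC class I, and of IFITM1, a membrane protein that restricts viral entry. HLA-B stood at 857, 362 and 629.9 CPM in the control and 711, 1103 and 1475 CPM in the HIF-1α libraries, with a log2 fold change of 0.83 (SE 0.36, adjusted p = 0.251). The HIF-1α cells were higher in numbers 2 and 3 and lower in number 1. HLA-C stood at 530.1, 277 and 551 CPM in the control, 596, 670.0 and 828 CPM in the HIF-1α and 396, 451 and 523 CPM in the HIF-2α libraries. The HIF-1α libraries were all above those of both other pools, with a log2 fold change against the control of 0.62 (SE 0.29, adjusted p = 0.27). HLA-B and HLA-C are similar in sequence and reads that mapped to several places were removed by the authors, so that their counts are uncertain, as are those of the IFITM, OAS and IFIT paralogs. IFITM1 was low, at 2.12, 0.455 and 1.90 CPM in the control and 0.490, 1.24 and 4.47 CPM in the HIF-1α libraries. Its log2 fold change was 0.47 (SE 0.97, adjusted p = 0.816), turned to -0.10 with the block and was -0.79 without HIF-1α replicate 3.

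HLA-C was the only member whose HIF-1α and control libraries did not overlap with HIF-1α higher (2.27% of members), and no member was lower without overlap. Of all genes 12.9% were higher and 11.2% lower in that way.

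**Figure D3:**
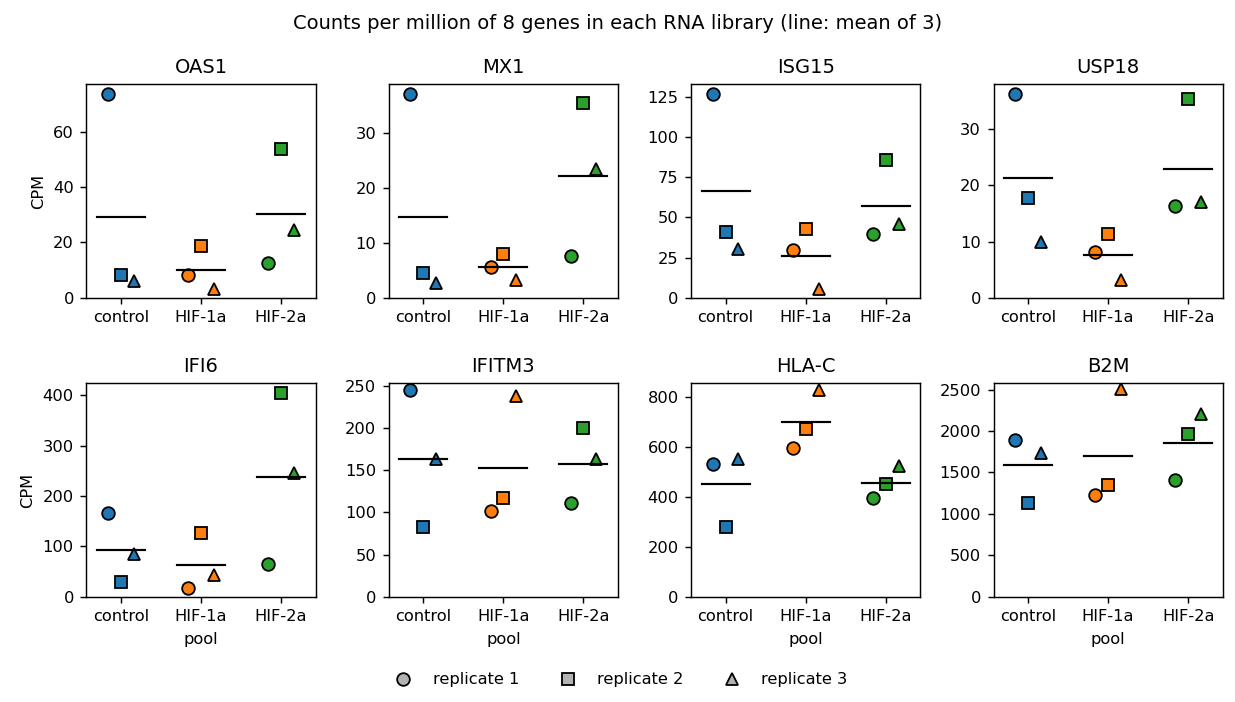
CPM (vertical axes, from 0) of OAS1, MX1, ISG15, USP18, IFI6, IFITM3, HLA-C and B2M in each of the 9 RNA libraries, by pool (horizontal axes), with symbols for the replicate number and a line at the mean of the 3 libraries. OAS1, MX1 and ISG15 have 1 control library far above the other 2, the HIF-1α libraries of USP18 lie under all HIF-2α libraries, and those of HLA-C lie above all others.

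Between HIF-2α overexpressing and control cells, no member passed with all 9 libraries, by edgeR or DESeq2, with or without the block. This comparison asks what more HIF-2α does in cells that already carry it. By edgeR without a block, 0 of 44 members and 0 of 14225 genes (0.0%) were called, with an unadjusted p under 0.05 for 0 members and 5.89% of genes. With the block 0 of 44 members and 38 genes (0.267%) were called, and DESeq2 called 0 members and 0.339% of genes without a block and 0 members and 2.54% with it. The estimates were above 0 for 33 of 44 members, and the median log2 fold change was 0.25 over the members and -0.02 over all genes. This direction was not stable. It turned to -0.06 without HIF-2α replicate 2 and to -0.03 without control replicate 3, and was 0.83 without control replicate 1. With the block and without that library, SAMD9L was called (log2 fold change 1.70, adjusted p = 0.0484), with 0.537% of all genes. With the block and without all 3 libraries of number 1, 5 of 44 members were called, all higher in HIF-2α cells, where 30 of all genes (0.209%) were. These were MX1, IFIH1, PARP9, SAMD9 and SAMD9L, with log2 fold changes of 1.61 to 3.05 and adjusted p of 0.0443 to 0.0498. In numbers 2 and 3 MX1 stood at 4.44 and 2.74 CPM in the control and at 35.3 and 23.4 CPM in the HIF-2α libraries, while in number 1 it stood at 37.1 and 7.51 CPM. None of the 5 was called with all 9 libraries, and 0 members were called without number 2 or without number 3. No member was free of overlap between these pools in either direction, where 6.0% of all genes were higher and 5.19% lower without overlap.

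IFI6, OAS3 and SAMD9 had the highest estimates. IFI6, a small protein of mitochondria and the endoplasmic reticulum, stood at 166, 30.1 and 84.1 CPM in the control and 65.5, 404.5 and 245 CPM in the HIF-2α libraries, with a log2 fold change of 1.35 (SE 0.82, adjusted p = 0.842). Its 2 higher HIF-2α libraries were above every control library, and HIF-2α replicate 1 was not. OAS3, a large oligoadenylate synthetase, stood at 191, 92.5 and 32.05 CPM in the control and 96.8, 330.0 and 147 CPM in the HIF-2α libraries (log2 fold change 0.86, SE 0.74, adjusted p = 0.865). SAMD9, an antiviral protein, stood at 84.6, 44.7 and 18.1 CPM in the control and 41.3, 153 and 70.7 CPM in the HIF-2α libraries (log2 fold change 0.84, SE 0.59, adjusted p = 0.842). For both, HIF-2α replicate 2 was the highest library and the other 2 lay within the range of the control cells.

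OASL, IRF1 and PSMB9 had the lowest estimates. OASL, a synthetase-like protein without enzyme activity, stood at 19.3, 6.20 and 6.59 CPM in the control and 5.06, 11.3 and 5.16 CPM in the HIF-2α libraries, with a log2 fold change of -0.58 (SE 0.69, adjusted p = 0.893) that turned to 0.17 without control replicate 1. IRF1, a transcription factor that interferons and cytokines induce, stood at 85.8, 53.1 and 42.3 CPM in the control and 42.7, 31.3 and 49.04 CPM in the HIF-2α libraries (log2 fold change -0.56, SE 0.33, adjusted p = 0.842). PSMB9 stood at 33.1, 17.1 and 24.2 CPM in the control and 18.8, 12.7 and 19.4 CPM in the HIF-2α libraries (log2 fold change -0.55, SE 0.35, adjusted p = 0.842). The libraries of the 2 pools overlapped for each of these 3 genes.

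Between HIF-1α and HIF-2α cells the estimates leaned to lower levels in the HIF-1α cells. Without the block, 0 of 44 members and 7 of 14225 genes (0.0492%) were called by edgeR, with an unadjusted p under 0.05 for 2 members and 13.6% of genes, and DESeq2 called 0 members and 3.34% of genes. The median log2 fold change was -0.66 over the members and 0.02 over all genes, with 35 of 44 estimates below 0, and it stayed between -1.01 and -0.23 when each of the 9 libraries was left out in turn. The median over the 36 interferon genes was -0.78, and that over the 8 genes of the class I side was 0.06. With the block 843 genes (5.93%) passed, 197 of them lower in HIF-1α cells (1.38%), and USP18 was the member among them. Its 3 HIF-1α libraries were under all 3 HIF-2α libraries, with a log2 fold change of -1.60 without the block (SE 0.57, adjusted p = 0.262) and -1.74 with it (SE 0.40, adjusted p = 0.0362). The adjusted p ranged from 0.000193 to 0.592 over the alternatives, and with the block the call was kept in 3 of 9 fits without 1 library, those without HIF-2α replicate 1, control replicate 1 or control replicate 2. The fit without control replicate 2 called 4.32% of all genes. With the block and without control replicate 1, MX1 was called too (log2 fold change -1.85, adjusted p = 0.0434), with 6.13% of all genes. Without number 1, 5 members were called lower in HIF-1α cells with 2.33% of all genes, namely MX1, IFIH1, PARP9, SAMD9 and USP18 (log2 fold changes of -2.52 to -1.27). Without HIF-2α replicate 1, 6 were called lower with 2.77% of all genes, namely HERC6, IFI35, OAS3, SAMD9, USP18 and XAF1 (-3.14 to -1.43). IFITM2 was called without HIF-1α replicate 3 (-1.36, adjusted p = 0.0251), with 3.35% of all genes. DESeq2 with the block called OAS3, USP18 and XAF1, with 9.39% of all genes.

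IFIH1, USP18, XAF1 and TAP1 were the members whose HIF-1α libraries all lay under the HIF-2α libraries (9.09% of members), where this held for 8.82% of all genes. IFIH1, the RNA sensor also known as MDA5, stood at 26.3, 25.2 and 13.01 CPM in the HIF-1α and 26.96, 61.4 and 30.3 CPM in the HIF-2α libraries. XAF1, a protein that promotes apoptosis, stood at 14.7, 13.7 and 1.53 CPM and 29.4, 39.2 and 30.3 CPM. TAP1, the partner of TAP2, stood at 79.1, 58.9 and 88.2 CPM and 91.2, 106 and 98.5 CPM. With all 9 libraries none of these 3 passed the edgeR test with or without the block. With the block IFIH1 passed without number 1 (adjusted p = 0.0392) and XAF1 without HIF-2α replicate 1 (adjusted p = 0.0402). Their control libraries spanned 9.20 to 60.4 CPM for IFIH1, 4.25 to 57.5 CPM for XAF1 and 50.2 to 131 CPM for TAP1. HLA-C was the member with all HIF-1α libraries higher (2.27%, against 10.4% of all genes).

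**Figure D4:**
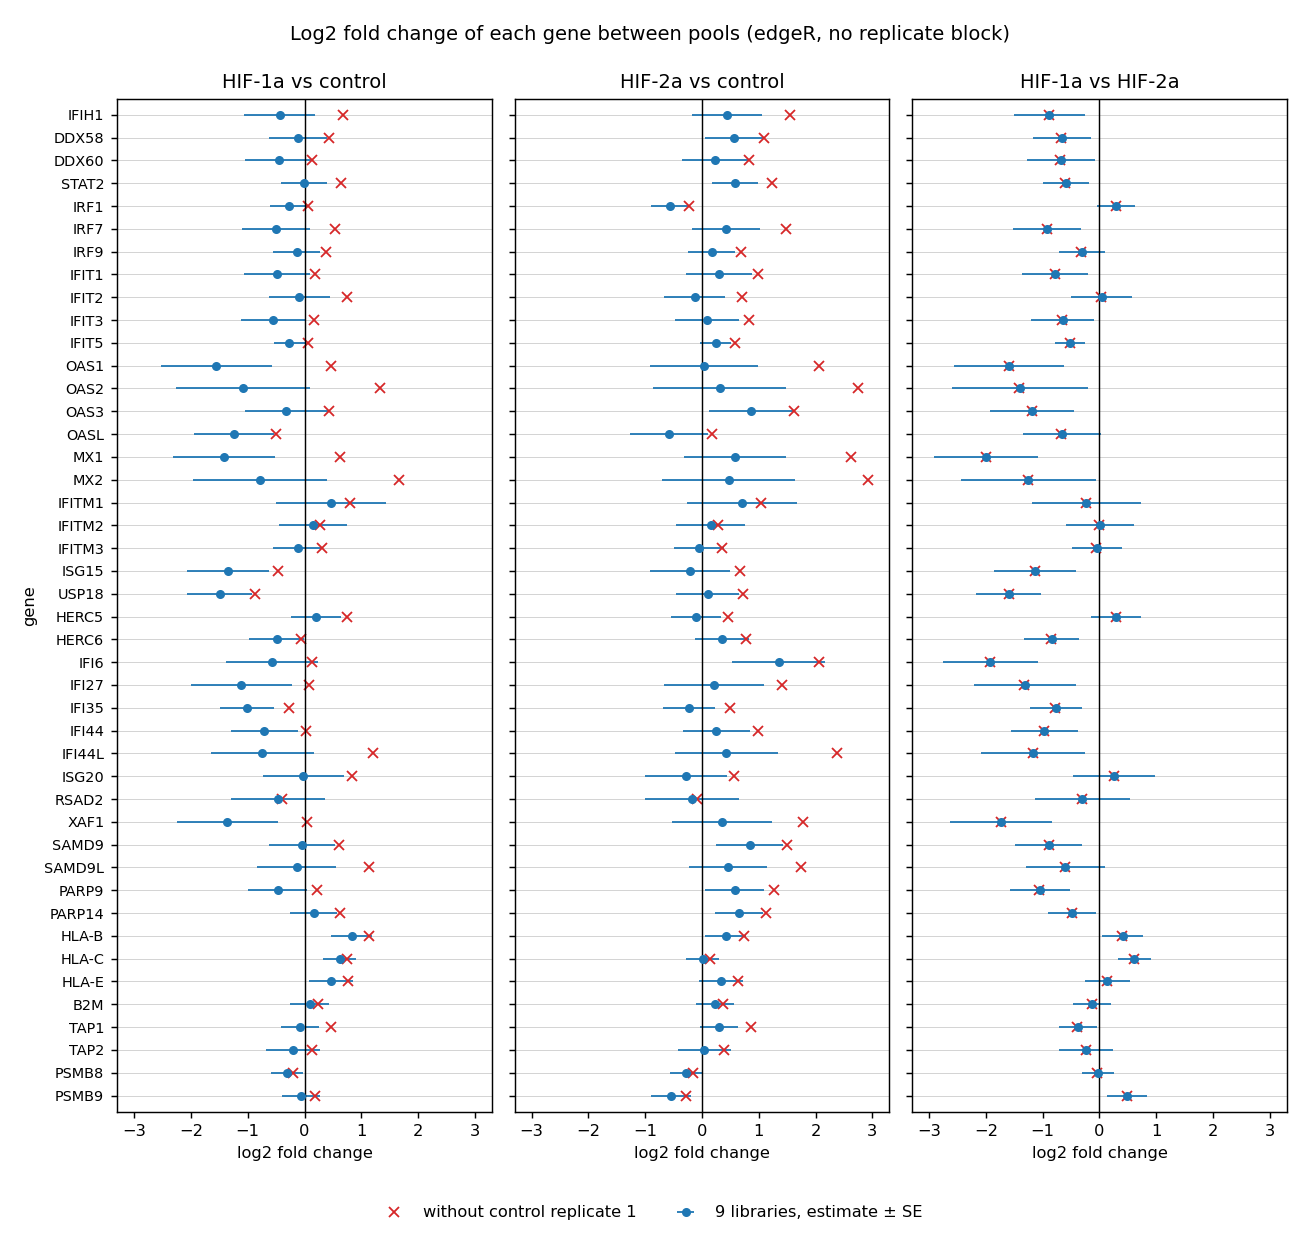
Log2 fold change (horizontal axes) of each of the 44 genes (vertical axis) in the 3 comparisons, from edgeR without the block, as the estimate ± SE from 9 libraries (circles) and without control replicate 1 (crosses). In the HIF-1α against control panel the median moves from -0.32 to 0.34 when that library is left out, and in the HIF-1α against HIF-2α panel circles and crosses lie on each other.

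By role, the MX and OAS genes had the widest spread between control libraries. The median ratio of the highest to the lowest control library was 2.69 for the 4 transcription factors, 5.03 for the 3 RNA sensors, 9.09 for the 4 OAS genes, 4.42 for the 4 IFIT genes and 15.2 for the 2 MX genes. STAT2 had the highest level per transcript length among the factors, 32.4 CPM per kb. It stood at 213, 79.2 and 76.9 CPM in the control, 128, 94.03 and 144 CPM in the HIF-1α and 165, 246 and 140.4 CPM in the HIF-2α libraries, and control replicate 1 and HIF-2α replicate 2 were again its high libraries. Among the IFIT genes, a family that restricts viral RNA, IFIT3 had the highest level per length (26.5 CPM per kb) and stood at 125, 58.7 and 24.1 CPM in the control, 48.9, 67.7 and 24.2 CPM in the HIF-1α and 52.6, 111 and 58.04 CPM in the HIF-2α libraries. Control replicate 1 and HIF-2α replicate 2 were above the other 7 libraries.

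ISG15, a ubiquitin-like protein that HERC5 conjugates to its targets, showed the widest range of the conjugation genes within the HIF-1α cells. It stood at 127, 41.1 and 30.6 CPM in the control, 29.8, 42.9 and 5.27 CPM in the HIF-1α and 39.6, 85.6 and 45.99 CPM in the HIF-2α libraries. HIF-1α replicate 3 was the lowest of all 9 and control replicate 1 the highest. HERC5 did not share this low value and stood at 22.1 to 27.97 CPM in the HIF-1α libraries.

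Of the interferon genes, the IFITM genes followed the others least closely. With pool means subtracted, their r with the median of the other interferon genes was 0.211 (IFITM1), -0.378 (IFITM2) and 0.284 (IFITM3) over 9 libraries. The members of the OAS, MX and IFIT families had 0.803 to 0.983, while IRF1 had 0.393 and STAT2 0.598. IFITM3, with 258 CPM per kb the most abundant interferon gene per length, stood at 245, 82.96 and 163 CPM in the control, 101, 117 and 238 CPM in the HIF-1α and 111, 199.9 and 163 CPM in the HIF-2α libraries. HIF-1α replicate 3, which was low for most interferon genes, was the highest of its pool for all 3 IFITM genes.

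The MHC class I chains were also high in HIF-1α replicate 3. The median over the 4 chains was 0.79 above the genes' own means in HIF-1α replicate 3 and 0.83 below them in control replicate 2, and these libraries were the highest and the lowest for all 4. With pool means subtracted, their r with each other had a median of 0.888 over 6 pairs. With the interferon genes it had a median of 0.159 over 144 pairs, both over 9 libraries. B2M, which encodes beta-2-microglobulin, was the most abundant member at 1820 CPM per kb. It stood at 1896, 1132 and 1739 CPM in the control, 1226, 1349 and 2508 CPM in the HIF-1α and 1412, 1962 and 2206 CPM in the HIF-2α libraries, with overlap between all pools. The ranges within a pool were narrower than for the interferon genes, with a median ratio of the highest to the lowest library of 2.01 in control, 2.06 in HIF-1α and 1.49 in HIF-2α cells for the 4 chains. Of the peptide supply genes, PSMB8 had the highest level per length (70.6 CPM per kb) and stood at 105, 66.6 and 99.9 CPM in the control, 71.7, 49.1 and 97.8 CPM in the HIF-1α and 78.6, 64.9 and 80.3 CPM in the HIF-2α libraries, again with overlap.

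The interferons themselves were at or near 0. Of 10 interferon genes in the table, IFNA2, IFNK, IFNG, IFNL2 and IFNL3 had 0 counts in every library, which allows up to 0.0553 to 0.108 CPM per library (3 counts, counting error only), and IFNB1 had 9 counts over the 9 libraries. IFNE, at 0.142 to 0.809 CPM, was the only interferon that passed the filter and was not called in any comparison. All 10 genes of receptors and kinases were tested and none was called with or without the block. Of 15 tested genes of nucleic acid sensing none was called in these fits. Of 9 inhibitors of interferon signalling, USP18 fell and SOCS1 rose in HIF-1α against HIF-2α cells with the block. SOCS1, which inhibits JAK kinases, stood at 2.38, 1.14 and 3.23 CPM in the control, 3.58, 2.61 and 4.02 CPM in the HIF-1α and 0.626, 0.837 and 2.08 CPM in the HIF-2α libraries, with no overlap between the latter pools. Its log2 fold change was 1.65 (SE 0.38, edgeR adjusted p = 0.0385), and without the block 1.52 (adjusted p = 0.263).

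Of 29 further interferon-stimulated genes that were tested, 1 was called in these fits, again with the block and between the HIF-1α and HIF-2α cells. GBP1, a guanylate-binding protein, stood at 21.0, 27.0 and 22.1 CPM in the HIF-1α and 34.4, 53.6 and 177 CPM in the HIF-2α libraries. Its log2 fold change was -1.55 (SE 0.38, adjusted p = 0.0481), and -1.92 without the block (adjusted p = 0.173). The median over the 29 genes was -0.33 in HIF-1α against control cells without the block, -0.42 with it, and 0.10 with it and without control replicate 1. In that last fit the median over the 44 members was 0.48 and that over all genes 0.07. Of 15 tested genes of class I assembly and the immunoproteasome none was called in these fits, and of the 3 constitutive proteasome subunits PSMB7 was called lower in HIF-1α than in control cells with the block (log2 fold change -0.83, SE 0.18, adjusted p = 0.0389), though not without it (adjusted p = 0.2). PSMB7 stood at 287, 224 and 194 CPM in the control and 179, 131 and 93.2 CPM in the HIF-1α libraries, which did not overlap.

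HIF-1α and HIF-1β binding sites lay near a smaller share of these genes than of all tested genes. For HIF-2α this held only in HIF-2α cells. A 2500 bp peak window lay within 10 kb of an annotated start for 5 of 44 members in the HIF-1α list of HIF-1α cells (11.4%), against 35.4% of the 13685 tested genes with a position (GRCh37, GENCODE). For HIF-1β, the partner of both HIF-α subunits, the members with a window were 4 (9.09%) in HIF-1α cells, 5 (11.4%) in HIF-2α cells and 6 (13.6%) in control cells, against 41.6%, 16.9% and 26.7% of tested genes. For HIF-2α they were 2 (4.55%) in HIF-1α cells, 5 (11.4%) in HIF-2α cells and 3 (6.82%) in control cells, against 4.51%, 15.2% and 5.69%. Each list comes from 1 library and holds no score, so that no test was made, and the depth behind them is unknown.

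**Figure D5:**
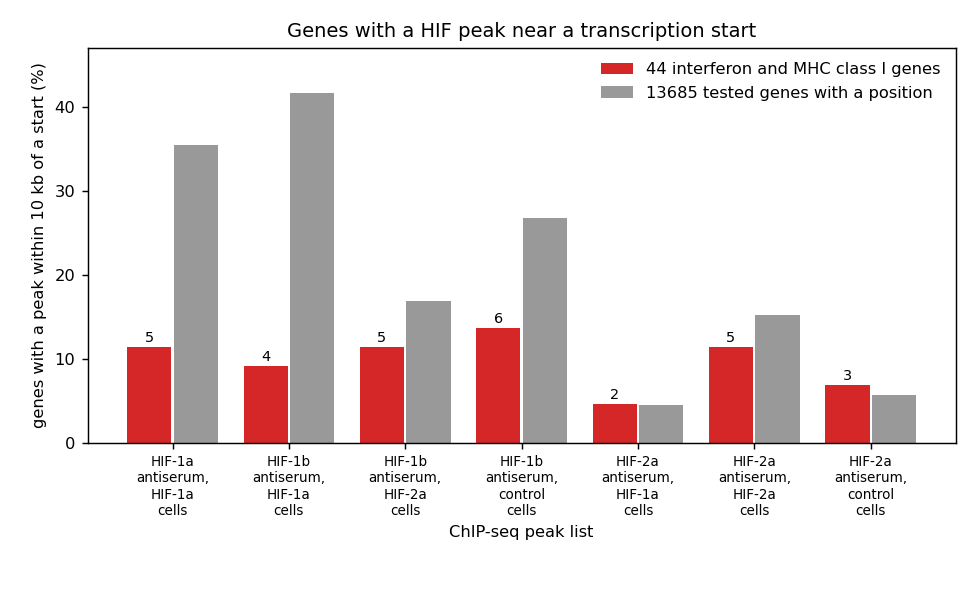
Share of genes (vertical axis, percent) with a peak window within 10 kb of an annotated start, for the 44 members (red, with their number above the bar) and for 13685 tested genes (grey), in the 7 ChIP-seq lists (horizontal axis). The red bars lie under the grey ones in 5 lists, most of all for HIF-1α (11.4% against 35.4%) and HIF-1β (9.09% against 41.6%) in HIF-1α cells, and slightly above them for HIF-2α in HIF-1α and control cells.

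A window covered the start of the canonical transcript for 4 members, IFIT5, IRF1, PARP14 and ISG15. IFIT5, an RNA-binding protein, had windows over it for HIF-1α and HIF-1β in HIF-1α cells, for HIF-1β and HIF-2α in HIF-2α cells and for HIF-1β in control cells, with midpoints 0.37 to 0.89 kb downstream. The HIF-1α window was chr10:91173534-91176033. IFIT5 stood at 59.04, 34.00 and 31.7 CPM in the control, 32.9, 39.00 and 31.4 CPM in the HIF-1α and 38.7, 57.1 and 51.8 CPM in the HIF-2α libraries, and these overlapped between pools. IRF1 had windows over this start for HIF-1α in HIF-1α cells (chr5:131825500-131827999) and for HIF-1β in all 3 pools. PARP14, an ADP-ribosyltransferase, had a HIF-1α window in HIF-1α cells at chr3:122397973-122400472, and stood at 214, 126 and 72.9 CPM in the control and 157, 174 and 132 CPM in the HIF-1α libraries. ISG15 had 1 for HIF-1β in control cells, at chr1:947561-950060.

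The other windows lay beside these starts. For ISG15 all 7 lists held windows with midpoints 6.06 to 7.08 kb downstream of the canonical start. For IFIT2 the HIF-2α windows of control and HIF-2α cells lay over the start of a longer transcript, with midpoints at -18.46 and -18.44 kb from the canonical one (minus for upstream). XAF1 had HIF-1β windows in all 3 pools with midpoints at -3.08 to -2.87 kb. IFIT3 had a HIF-1β window of control cells, and IFI35 had windows in 2 lists. IRF1 also had HIF-2α windows in all 3 pools. Their midpoints from its canonical start lay at -7.09 kb in HIF-1α cells, 19.27 kb in control cells, and -7.33, 18.85 and 31.61 kb in HIF-2α cells. A further HIF-1α window of HIF-1α cells lay at -6.51 kb. PARP14 had a HIF-2α window of HIF-2α cells at 10.13 kb. No window lay within 10 kb of a start of USP18, of the OAS and MX genes or of any of the 8 MHC class I and peptide supply genes.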

How the data were processed

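RNA-seq counts of 9 libraries and 7 ChIP-seq peak lists were used. Per the labels and the methods, the authors trimmed reads (Trim Galore 0.3.3), aligned the RNA reads of a directional library to GRCh37 (TopHat2 2.0.8b, Bowtie 1.0.0), removed reads that mapped to several places and deposited raw counts per gene (HTSeq 0.5.4p3). The strand setting of the counting was not given in the sources used here. ChIP-seq reads were aligned with BWA 0.7.5a-r405, and the deposited lists hold windows without a score, each from 1 library. Tool versions come from the submitters' processing notes. No file of the 3 input DNA samples was used here.

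Here counts were tested with edgeR 4.0.16 in R 4.3.3 (TMM scaling, filterByExpr, quasi-likelihood test, 1 fit of 9 libraries on the pool, Benjamini-Hochberg adjustment over 14225 genes, threshold 0.05). Alternatives were a block for the replicate number, DESeq2 1.42.0, no filter, only the 2 pools compared and leaving out libraries. CPM used TMM-scaled library sizes, and log2 CPM a prior count of 2. After subtraction of the pool means, the 9 same-number pairs of libraries correlated at 0.348 to 0.652 over genes and the 18 pairs with different numbers at -0.478 to 0.0281, so that the numbers were taken to pair the libraries. The labels do not say what a number stands for. The fit was tested on simulated data. Gene positions came from GENCODE on GRCh37, with 20383 of 23441 symbols matched directly and 1392 by an older symbol. DDX58 is RIGI in the current annotation. Values per library are given for members called with or without the block, for the 3 highest and 3 lowest estimates of each comparison with the control, and for the member of each role with the highest CPM per kb. Other genes named with values were chosen after those values were seen. The members and gene lists were chosen with earlier results of these data known.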

Additional observations from a re-analysis of the deposited data

Results flagged for a closer look

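USP18 differed between the HIF-1α and the HIF-2α cells when the replicate number was fitted as a block, by -1.74 on the log2 scale (SE 0.40, edgeR adjusted p = 0.0362), with the HIF-1α cells lower in 3 of 3 numbers. It is given here because this tests the difference between the 2 pools with a HIF-α gene in the vector directly. Within numbers 1, 2 and 3 the ratio of HIF-1α to HIF-2α cells was 0.502, 0.321 and 0.187. Without the block the adjusted p was 0.262, and with the block it ranged from 0.0177 to 0.174 when 1 of the 9 libraries was left out. The call was kept in 3 of these 9 fits. With the block the edgeR adjusted p was 0.0877 without number 2 and 0.213 without number 3. The fit with the block and all 9 libraries called 843 of 14225 genes (5.93%) and 1 of the 44 members.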

How the results depend on the processing

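With the replicate number as a block, the genes called were 1132 in HIF-1α against control, 38 in HIF-2α against control and 843 in HIF-1α against HIF-2α cells. Members called with the block were 1, 0 and 1. DESeq2 called 736, 65 and 639 genes and 0 members, and DESeq2 with the block 2997, 487 and 1799 genes and 2 (OASL, USP18), 0 and 3 (OAS3, USP18, XAF1) members. Without a filter on low counts 1 gene was called in HIF-2α against control and 82 in HIF-1α against HIF-2α cells, and with only the 6 libraries compared 2 and 0. IFITM1 in HIF-1α against control cells was -0.10 with the block and -0.20 by DESeq2 with the block.

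Leaving out 1 library gave 0 to 0, 0 to 2 and 0 to 29 genes called in the 3 comparisons. Leaving out 1 library or 1 number gave 0 to 2408, 2 to 94 and 167 to 890 with the block. Members called were 0 to 0 without the block, and with it 0 to 6 (without control replicate 1, with 16.6% of all genes), 0 to 5 (without number 1, with 0.209%) and 0 to 6 (without HIF-2α replicate 1, with 2.77%). The medians of the members ranged from -0.63 to 0.34, -0.06 to 0.83 and -1.01 to -0.23, and with the block from -0.76 to 0.48, -0.16 to 1.05 and -1.25 to -0.43. The first was 0.34 without control replicate 1 (0.48 with the block, and 0.42 with the block and without number 1). The second was -0.06 without HIF-2α replicate 2 and -0.03 without control replicate 3. With the block it was -0.16 without control replicate 2, -0.02 without control replicate 3, -0.14 without number 2 and -0.06 without number 3. OAS1 ranged from -2.39 to 0.47, MX1 from -1.92 to 0.62, OASL from -1.07 to 0.17 and IFITM1 from -0.79 to 0.92. USP18 ranged from -1.93 to -0.87 in HIF-1α against control and from -2.04 to -1.15 in HIF-1α against HIF-2α cells, and with the block from -1.95 to -0.94 and -2.19 to -1.39. The cause of these changes was not tested. The fits with the block and without 1 library were chosen after the data were seen.

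Between replicate numbers, the edgeR fit with all 9 libraries called 2 members and 15.4% of all genes. When libraries were left out, 706 to 2721 genes and 1 to 11 members were called. Without a filter 4 members were called, and the share of all genes in that fit is not given here. DESeq2's likelihood ratio test called 3963 genes (20.7%) and 8 members. Members with a window within 50 kb of a start were 12 for HIF-1α and 14 for HIF-1β in HIF-1α cells, 8 for HIF-1β and 9 for HIF-2α in HIF-2α cells, and 15 for HIF-1β and 7 for HIF-2α in control cells, where 51.2%, 57.7%, 30.5%, 28.9%, 44.6% and 12.3% of tested genes had one. Within 5 kb there was 1 for HIF-2α in HIF-1α cells (3.42% of tested genes). Counted from the 5′ end of the gene, there were 2 for HIF-1β in HIF-2α cells (1781 of 13685 tested genes) and 1 each for HIF-2α in HIF-1α (2.66%) and control cells (3.38%). Of the counts and medians, 184 values under alternatives stayed close to the reported value, 105 moved and 9 changed sign.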

Other observations

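GBP2, a guanylate-binding protein outside the 44 genes and singled out after its values were seen, was ordered by replicate number in every pool. It stood at 1.86, 5.95 and 15.7 CPM in control replicates 1, 2 and 3, at 0.662, 6.99 and 24.8 CPM in the HIF-1α libraries and at 1.30, 6.38 and 28.1 CPM in the HIF-2α libraries. OAS1, by contrast, was highest in replicate 1 of the control cells and in replicate 2 of both other pools.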
